A study of Mus musculus with 42 samples.

Results

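Day 5 cells with a low level of a Gsc reporter (d5 Glow) were compared with day 5 cells without it (d5 G-) during the differentiation of mouse embryonic stem cells (ESCs) towards anterior definitive endoderm. The comparison rests on 6 of the 42 arrays of the series, 3 of d5 Glow and 3 of d5 G-, which were chosen by sample title and by no measured value. Both populations came from a dual reporter ESC line named B6, which carries GFP at the Gsc locus and RedStar at the Hhex locus, so that both populations share both reporter alleles. The cultures were grown in T75 flasks with the cytokines and growth factors of the differentiation protocol, received neither the EZH2 inhibitor nor its solvent, and were separated by fluorescence-activated cell sorting (FACS) on culture day 5. The study describes d5 G- cells as epiblast-like and d5 Glow cells as posterior primitive streak. A single ESC line was used, the gates followed GFP rather than the mRNA measured here, and the study describes its expression data as means of independent replicate experiments, while the labels do not say which arrays share a culture.

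In the gastrulating embryo, cells of the epithelial epiblast enter the primitive streak, lose their junctions and leave as mesoderm or endoderm. Nodal, Wnt, BMP and FGF signals drive this step, and the transcription factor genes T, Eomes, Mixl1 and Mesp1 are switched on in the streak. Gsc encodes a homeobox repressor that is highest in the anterior streak, from which definitive endoderm forms, whereas posterior and lateral streak cells give rise largely to mesoderm. Epiblast cells keep genes of the pluripotency network until they enter the streak.

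On the 6 arrays between 25887 and 37910 probes were well above background, and 0 spots were saturated on any array. Arrays did not sort by gate alone. By Euclidean distance over all probes, d5 G- replicate 1 lay nearer to d5 Glow replicate 1 (91.7) than to the other d5 G- arrays (103.1 and 127). The d5 G- replicate 3 array likewise lay nearer to d5 Glow replicate 3 (104.1) than to its own group (118.8 and 127). Replicate 3 of both groups was scanned on another day than replicates 1 and 2 and shared slide 4, d5 G- replicate 2 shared slide 2 with d5 Glow replicates 1 and 2, and d5 G- replicate 1 was on slide 1. The d5 Glow replicate 3 array held 12 probes more than 4 log2 units above all other 41 arrays, where the other arrays held between 0 and 9.

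The gene behind the gate was measured first. Gsc mRNA stood at 8.45, 8.75 and 9.80 (log2 intensity) on the 3 d5 G- arrays and at 9.46, 10.21 and 12.41 on the 3 d5 Glow arrays. Each d5 Glow array was above the d5 G- array of its own number, but the groups overlapped, since d5 G- replicate 3 exceeded d5 Glow replicate 1. The difference was 1.69 on the log2 scale (standard error 0.47, limma adjusted p = 0.0588), a 3.23-fold higher level that missed the threshold. With the replicate number as a block the adjusted p was 0.0094, which passed it. Gsc was 4.96 ± 0.20 (SD, n = 3) in ESCs, where it was not well above background on any array, so d5 G- cells at 9.0 ± 0.71 already held Gsc mRNA. Hhex, which marks endoderm and carries the other reporter, stood at 7.38, 7.29 and 7.74 in d5 G- and at 7.67, 7.93 and 9.50 in d5 Glow cells. These groups overlapped, and the difference of 0.89 (standard error 0.40, adjusted p = 0.43) did not pass.

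**Figure D1:**
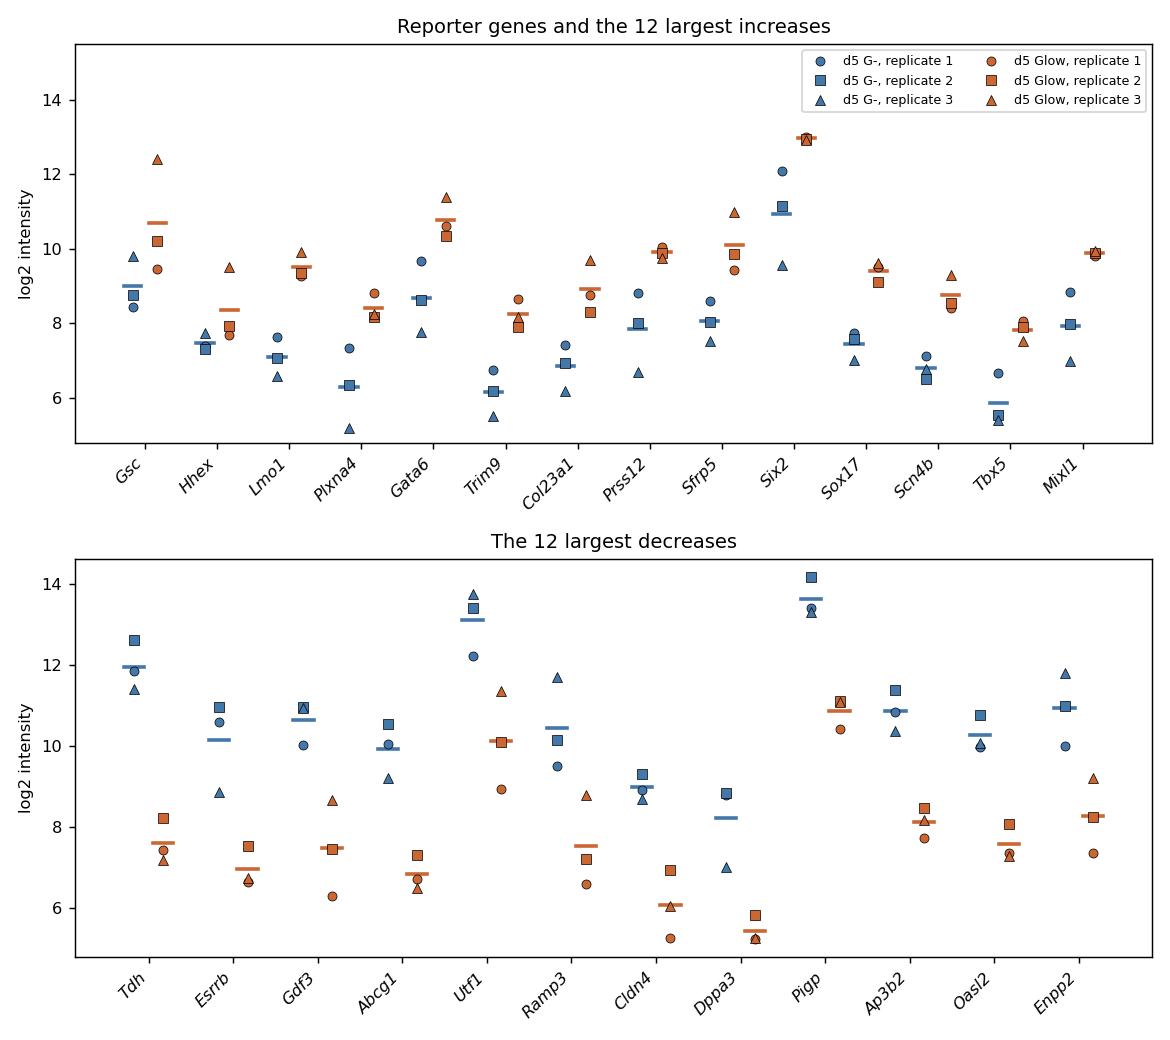
Log2 intensity on each of the 6 arrays for Gsc, Hhex and the 12 largest increases (upper panel) and for the 12 largest decreases (lower panel). Blue marks d5 G- and orange d5 Glow, marker shapes give the replicate number, and short bars are means of 3 arrays. Gsc and Hhex overlap between the groups. The other genes have their groups apart by the rule that chose them, which required all 9 pairs to move alike.

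A gene was called where 1 of its probes passed both thresholds, an adjusted p of 0.01 or less and a log2 difference of 1.5 or more in size. Between d5 Glow and d5 G- cells 167 of 22201 genes were called (0.752%), 29 higher (0.131%) and 138 lower (0.622%) in d5 Glow. The lower genes thus outnumbered the higher ones. All 29 genes called higher had every one of the 9 pairs of a d5 Glow and a d5 G- array higher, as had 6.87% of all genes, and 132 of the 138 called lower had every pair lower, as had 7.42% of all genes. The median log2 difference of all genes was 0.02. The 12 largest increases and 12 largest decreases named below were picked among called genes with all 9 pairs alike. Their lack of overlap therefore follows from the choice. The call rested on the spread estimated over all 42 arrays: a fit to the 6 compared arrays alone called 0 genes, with 3355 probes at an unadjusted p under 0.05 and a smallest adjusted p of 0.0622.

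Both directions were followed across the replicates. Over the 138 genes called lower, the median difference within replicates 1, 2 and 3 was -1.88, -2.14 and -1.79. Over the 29 genes called higher it was 1.1, 1.72 and 2.66, so the increases were widest within replicate 3. Without d5 G- replicate 3 the counts were 3 higher and 78 lower, without d5 G- replicate 2 they were 7 and 48, and without d5 G- replicate 1 they were 128 and 274. Without d5 Glow replicate 1, 2 or 3 there were 22 higher in each case and 43, 95 and 206 lower. Leaving out replicate 3 of both groups, a choice made after seeing the data, left 1 gene higher and 92 lower. None of the 12 largest increases was called in that last fit, whereas 9 of the 12 largest decreases were. Of the 12 largest increases, 3 remained without d5 G- replicate 2, 2 without d5 G- replicate 3, and 5, 5 and 6 without d5 Glow replicates 1, 2 and 3. Of the 12 largest decreases, 5 remained without d5 Glow replicate 1, 8 without d5 G- replicate 2, 9 without d5 G- replicate 3 and 11 without any other array.

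**Figure D2:**
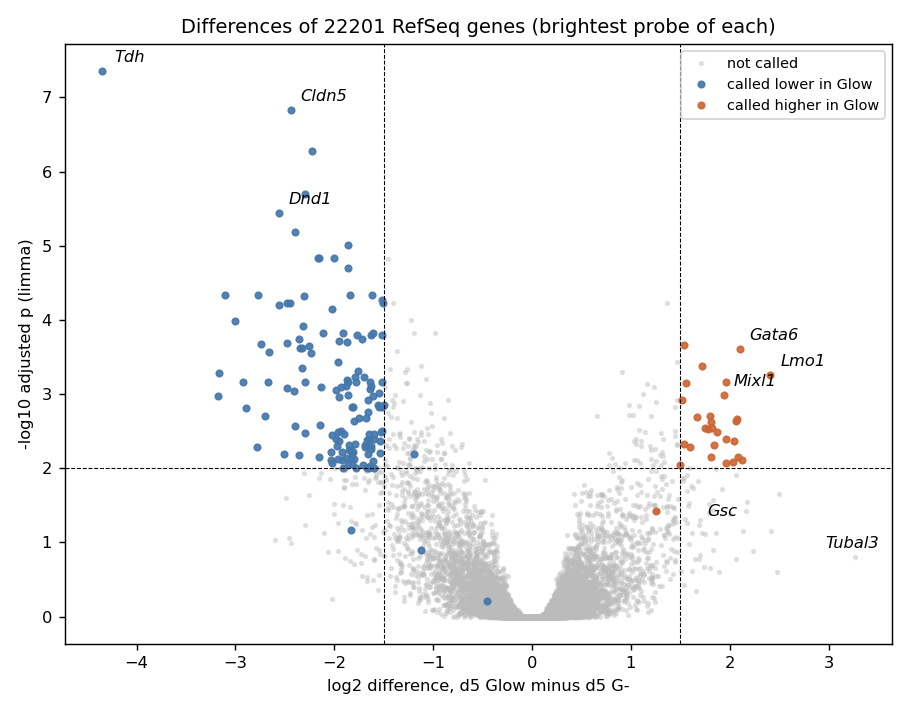
Log2 difference between d5 Glow and d5 G- (x axis) against -log10 of the limma adjusted p (y axis) for 22201 RefSeq genes, each by its brightest probe. Dashed lines mark the thresholds, orange the 29 genes called higher and blue the 138 called lower; a coloured point inside the lines was called by another probe of the gene.

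Pluripotency genes were among the largest decreases. Of 18 genes of naive pluripotency, the state of the inner cell mass, 10 fell in d5 Glow cells and 0 rose, against 0.622% and 0.131% of all genes. The median log2 difference of the list was -1.72 against 0.02 for all genes. Tdh, the mitochondrial enzyme that degrades threonine in mouse ESCs, stood at 11.85, 12.62 and 11.40 in d5 G- cells and at 7.42, 8.22 and 7.19 in d5 Glow cells. The groups were far apart, and the log2 difference of Tdh was -4.35 (standard error 0.40, adjusted p = 4.43e-08), a 20.3-fold lower level and the largest decrease among called genes. Both probes of Tdh were called, and its difference was -4.80 within slide 2 and -4.22 within slide 4.

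Esrrb, an orphan nuclear receptor that sustains naive pluripotency, was at 10.59, 10.97 and 8.86 in d5 G- cells and at 6.64, 7.53 and 6.74 in d5 Glow cells. Its d5 G- replicate 3 was low but still above each d5 Glow array, and Esrrb fell by 3.17 (standard error 0.56, adjusted p = 0.00105). The call was lost without d5 Glow replicate 1 or without d5 G- replicate 2. Dppa3, a maternal factor that protects DNA methylation in the early embryo, was at 8.78, 8.84 and 7.02 in d5 G- cells and between 5.22 and 5.82 in d5 Glow cells, and it fell by 2.78 (adjusted p = 0.00512). The call of Dppa3 was lost without any single array other than d5 G- replicate 3. The other decreases of the list were Dppa5a (-2.66), Tcl1 (-2.44), Klf2 (-2.41), Fbxo15 (-2.23), Prdm14 (-1.94), Nr5a2 (-1.82) and Zfp42 (-1.62). Tcl1, a cofactor of the kinase Akt, was not well above background on any d5 Glow array, so that its level was at least 3.67-fold lower there. Nanog, at 8.81, 9.79 and 9.55 against 7.30, 8.13 and 8.74, did not overlap between the groups but missed the threshold (-1.33, adjusted p = 0.0493). Tbx3 and Klf4 differed the other way, by 1.90 and 0.63, and were not called. In bulk RNA, fewer cells of a kind and less RNA per cell cannot be told apart, and the share of less differentiated cells in each gate was not measured on these arrays. The summed intensity of the list lay between 14443 and 21313 on the d5 Glow arrays and between 33613 and 68131 on the d5 G- arrays.

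Fewer genes of general pluripotency passed. Of 12 such genes 3 fell, Utf1, Dppa4 and Dppa2, against 0.622% of all genes, and the median log2 difference was -1.12. Utf1, a chromatin protein of pluripotent cells, was at 12.22, 13.41 and 13.76 in d5 G- cells and at 8.94, 10.09 and 11.36 in d5 Glow cells. Both groups were lowest in replicate 1 without overlapping, and Utf1 fell by 3.00 (standard error 0.44, adjusted p = 0.000103). Pou5f1, which encodes the pluripotency factor OCT4, was at 10.96, 12.45 and 13.68 against 9.40, 10.14 and 12.04. Here the groups overlapped, and the difference of -1.84 (standard error 0.63, adjusted p = 0.18) did not pass. Sox2, the partner of OCT4, was tight within each group, at 9.66 to 9.83 in d5 G- and 8.41 to 8.65 in d5 Glow cells, and its difference of -1.25 (adjusted p = 0.00393) stayed under the threshold on size. Among 11 genes of the formative and primed epiblast only Pou3f1 was called. Pou3f1, a POU factor of the epiblast and of neural cells, fell by 2.48 (standard error 0.43, adjusted p = 0.000817), from 9.88, 11.49 and 11.91 to 8.05, 8.75 and 9.06.

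Of 9 germ cell genes, several of which pluripotent cells also express, 3 fell and none rose, against 0.622% and 0.131% of all genes. All 9 differed downwards, with a median of -1.52 against 0.02 for all genes. Dnd1, an RNA-binding protein of primordial germ cells, was at 10.76, 11.31 and 10.11 in d5 G- cells and at 7.71, 8.61 and 8.19 in d5 Glow cells. The groups were apart, and Dnd1 fell by 2.56 (standard error 0.29, adjusted p = 3.58e-06). Ddx4, the germ cell RNA helicase, fell by 1.56, and Tdrd12, of the piRNA pathway, was not well above background on any d5 Glow array and was at least 2.72-fold lower there. Dazl and Stra8, markers of later germ cells, were not well above background on any of the 6 arrays, so their direction cannot be read.

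Genes of epithelial junctions differed downwards in d5 Glow cells. Of 16 genes of epithelial junction and identity, 15 differed downwards, with a median of -1.63 against 0.02 for all genes. Past the threshold 3 of them fell, Cldn4, Grhl2 and St14, as did 0.622% of all genes. With the replicate number as a block 6 of the 16 fell. Cldn4, a claudin of tight junctions, was at 8.91, 9.31 and 8.70 in d5 G- cells and at 5.25, 6.94 and 6.05 in d5 Glow cells. The groups did not overlap, and Cldn4 fell by 2.90 (standard error 0.53, adjusted p = 0.00154), although the call was lost without d5 Glow replicate 1, without d5 G- replicate 2 or without replicate 3 of both groups. Grhl2, a transcription factor of epithelial identity, fell by 2.48 (standard error 0.35, adjusted p = 5.95e-05), and St14, a membrane serine protease of epithelia, by 1.85 (adjusted p = 0.00492). Cdh1, which encodes E-cadherin, was at 10.97, 12.02 and 12.74 in d5 G- cells and at 9.22, 10.08 and 11.58 in d5 Glow cells. These groups overlapped in 1 of 9 pairs, and the difference of -1.62 (standard error 0.43, adjusted p = 0.0417) did not pass, while it did with a block for replicate number within each day (adjusted p = 0.000639), a fit added after seeing the data.

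A list of 23 tight junction proteins, assembled after their values were seen, held 5 genes that fell (Cldn4, Cldn5, Tjp3, Marveld3 and Cgn) and 0 that rose, with a median of -0.74. Among all genes 0.622% were called lower. Cldn5, the claudin of endothelial and epiblast junctions, was at 8.13, 8.68 and 7.73 in d5 G- cells and at 5.78, 5.94 and 5.49 in d5 Glow cells. Its arrays lay close together within each group, and it fell by 2.44 (standard error 0.24, adjusted p = 1.47e-07). Tjp3 and Cgn encode plaque proteins of the tight junction and fell by 2.13 and 1.67. Marveld3 was called on its dimmer probe only, and its brighter probe missed the threshold (-1.275, limma adjusted p = 0.0109). Genes of the mesenchymal state did not pass: 0 of 13 were called, although 12 of them differed upwards, with a median of 0.62. Cdh2, which encodes N-cadherin, came nearest, at 12.70, 12.59 and 11.98 in d5 G- cells against 13.42, 13.44 and 13.57 in d5 Glow cells. Its groups were apart, and the difference of 1.05 (standard error 0.21, adjusted p = 0.00473) was too small for a call.

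The promoters of the genes called lower were compared with the others by their letters. Of those that hold several copies of the same E-box, 3 are shown. RefSeq promoters of GRCm38.p6, from 250 bases before to 50 after the start site, were matched for 103 of the 138 genes called lower, 19 of the 29 called higher and 16600 genes tested. The E-box CAGGTG, read on both strands, stood in 40 of 103 promoters of genes called lower (38.8%), in 2 of 19 of those called higher (10.5%) and in 3208 of 16600 in all (19.3%). CAGGTG is known as the site of the zinc-finger repressors of epithelial genes, among other E-box proteins, and the motifs were chosen after the values were seen. In the sequences below, written from 5′ to 3′ on the strand of the gene, capitals mark CAGGTG and its reverse complement.
Ap1m2, chr9:21312284-21312583, minus strand: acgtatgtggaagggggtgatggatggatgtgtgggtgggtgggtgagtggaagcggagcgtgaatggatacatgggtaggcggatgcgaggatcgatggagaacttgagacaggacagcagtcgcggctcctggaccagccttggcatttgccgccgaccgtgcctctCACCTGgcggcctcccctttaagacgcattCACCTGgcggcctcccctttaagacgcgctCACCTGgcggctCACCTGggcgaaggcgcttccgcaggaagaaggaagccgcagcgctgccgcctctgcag
Cldn4, chr5:134946885-134947184, minus strand: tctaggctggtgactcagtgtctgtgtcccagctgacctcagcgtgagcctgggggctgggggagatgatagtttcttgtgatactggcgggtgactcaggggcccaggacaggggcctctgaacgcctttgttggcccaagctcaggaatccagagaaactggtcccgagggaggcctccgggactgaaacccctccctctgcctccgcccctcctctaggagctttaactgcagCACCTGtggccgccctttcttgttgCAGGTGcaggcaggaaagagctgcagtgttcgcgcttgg
Mapk13, chr17:28769067-28769366, plus strand: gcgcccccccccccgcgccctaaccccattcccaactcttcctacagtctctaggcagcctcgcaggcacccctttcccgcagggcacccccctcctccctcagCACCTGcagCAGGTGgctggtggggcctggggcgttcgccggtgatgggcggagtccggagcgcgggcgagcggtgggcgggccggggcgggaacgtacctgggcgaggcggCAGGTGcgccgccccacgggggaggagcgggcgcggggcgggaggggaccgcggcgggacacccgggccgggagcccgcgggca
Ap1m2, which encodes an adaptor subunit that sorts proteins to the basolateral membrane of epithelia, held 4 copies that begin at -81, -51, -21 and -9 from the start site. Its mRNA was at 8.76, 9.71 and 10.06 in d5 G- cells and at 6.52, 7.16 and 8.53 in d5 Glow cells, without overlap, and fell by 2.11 (adjusted p = 0.000148). Cldn4 held copies at -14 and 12. Mapk13, a p38 kinase, held copies at -146, -137 and -34, and its mRNA fell by 2.48 (adjusted p = 0.000207). Promoters of other genes called lower, not shown, also held several copies, such as Arhgef16 at -150, -127 and -75. Other motifs were rarer or nearer to their share in all promoters. CAGCTG stood in 17.5% of promoters of genes called lower and in 15.7% of all, CACGTG in 12.6% and 8.3%, and the octamer ATGCAAAT in 2.91% and 1.73%. AGATAA, which GATA factors bind, stood in 15.8% of promoters of genes called higher, 7.77% of those called lower and 9.77% of all. AGGTGTGA, a T-box site, and TCAAGGTCA, the ESRRB site, stood in none of either set, and in 1.17% and 0.319% of all promoters. The median GC content was 60% for genes called lower, 61.3% for those called higher and 57% for all, and its part in these shares was not tested.

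**Figure D3:**
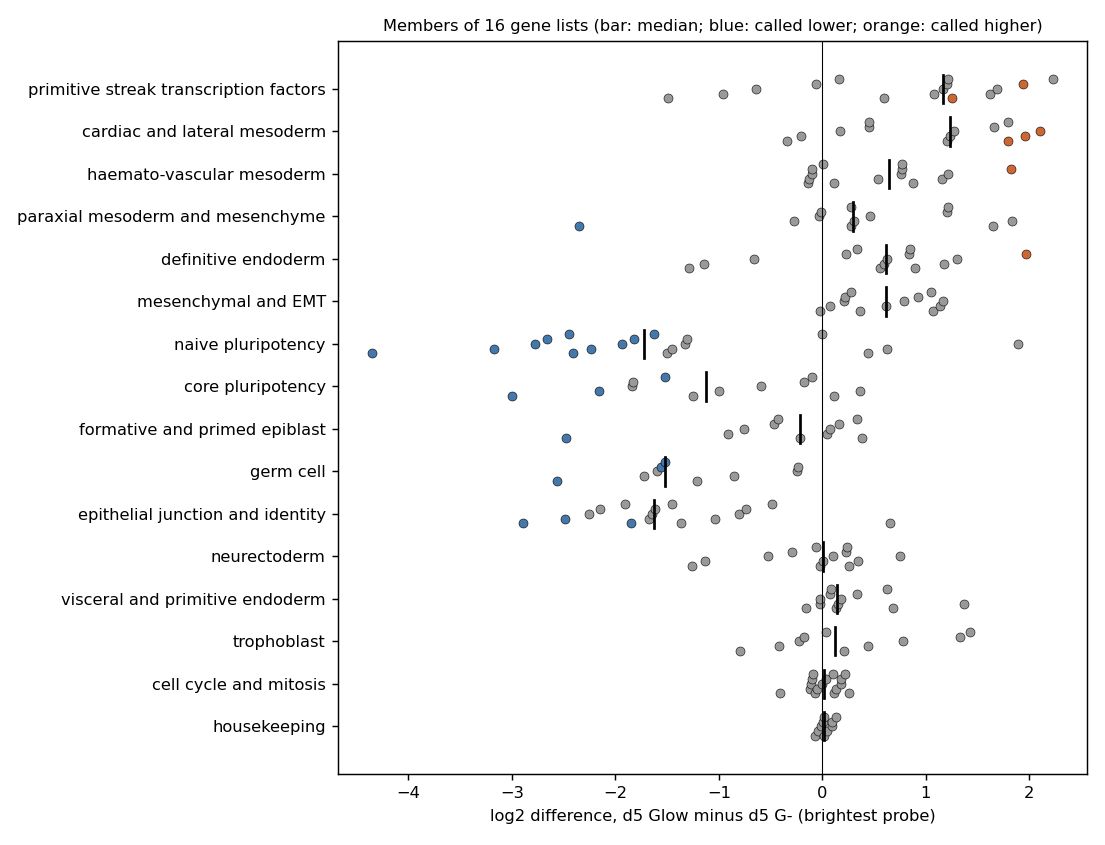
Log2 difference between d5 Glow and d5 G- for each member of 16 gene lists, by the brightest probe. Blue points were called lower, orange called higher and grey not called, and black bars are medians; the naive pluripotency, germ cell and epithelial lists lie mostly to the left of 0, and the streak and cardiac lists mostly to the right.

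The other genes among the 12 largest decreases belong to no single list. Gdf3, a ligand of the TGF-beta family expressed in pluripotent cells, was at 10.03, 10.96 and 10.94 in d5 G- cells and at 6.30, 7.44 and 8.68 in d5 Glow cells. Its d5 Glow arrays were spread but all lower, and Gdf3 fell by 3.17 (standard error 0.52, adjusted p = 0.000516). Abcg1, an exporter of cholesterol, fell by 3.10 (standard error 0.42, adjusted p = 4.65e-05), from 10.06, 10.54 and 9.21 to 6.71, 7.30 and 6.49. Ramp3, a partner of calcitonin-family receptors, fell by 2.93, Pigp, of glycolipid anchor synthesis, by 2.77 on its brighter probe, and Ap3b2, a neuronal adaptor subunit, by 2.75. Enpp2, the secreted enzyme autotaxin, which makes lysophosphatidic acid, fell by 2.67 (adjusted p = 0.00068), from 10.0, 11 and 11.81 to 7.35, 8.24 and 9.21. Its groups ran in parallel by replicate number without overlapping. The probes of Pigp disagreed, since the dimmer one differed by 0.17 (adjusted p = 0.988). Of the 12 largest decreases, Tdh, Abcg1, Utf1, Pigp and Ap3b2 were called whichever array was left out. Gstm1, Gstm2, Gstm3 and Gstm4, glutathione transferases, fell by 2.16, 1.63, 1.96 and 1.5, but their near-identical sequences may share signal between probes.

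Genes induced by interferon and genes of antigen processing were also among the decreases. A list of 45 such genes, assembled after their values were seen, had 43 members measured, of which 15 fell and 0 rose, with a median of -1.26. Among all genes 0.622% were called lower. Oasl2, of the oligoadenylate synthetase family, was at 9.99, 10.76 and 10.07 in d5 G- cells and at 7.35, 8.08 and 7.29 in d5 Glow cells. The groups were separate, and Oasl2 fell by 2.70 (standard error 0.50, adjusted p = 0.00199). Isg15, a ubiquitin-like modifier, was at 10.64, 12.02 and 11.28 against 8.48, 9.58 and 8.99, also without overlap, and fell by 2.29 (adjusted p = 0.0033). Psmb8 and Psmb9, subunits of the immunoproteasome, fell by 2.15 and 2.03, and Tap2, of the peptide transporter, by 2.02. Parp14, Parp9, Dtx3l, Parp12, Irgm1, Ddx58, Xaf1, Nmi, Bst2 and the transcription factor Irf1 made up the rest of the 15. Xaf1 was called on its dimmer probe only, and its brighter probe missed the threshold (-1.83, limma adjusted p = 0.0678). Other members were not called, such as Usp18 at 1.05 and Cxcl10 at 0.37. Without replicate 3 of both groups 3 of the list were called lower.

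The increases in d5 Glow cells were fewer and included genes of the streak and mesoderm. Of 15 transcription factors of the primitive streak 2 rose, Mixl1 and Eomes, against 0.131% of all genes, and the list had a median of 1.17. Mixl1, a homeobox gene of the streak, was at 8.83, 7.98 and 6.99 in d5 G- cells and at 9.80, 9.90 and 9.93 in d5 Glow cells. The d5 Glow arrays were nearly equal and the d5 G- arrays widely spread, and Mixl1 rose by 1.94 (standard error 0.34, adjusted p = 0.00102). Eomes, which specifies endoderm and early mesoderm, rose by 1.5 on its dimmer probe (adjusted p = 0.00068). Its brighter probe was already at 13.16, 12.54 and 11.95 in d5 G- cells, and differed by 1.25 (adjusted p = 0.0381). Mesp1, of nascent mesoderm, was at 9.72, 9.79 and 7.01 in d5 G- cells and at 11.45, 11.39 and 10.38 in d5 Glow cells, without overlap, and the difference of 2.23 (standard error 0.72, adjusted p = 0.132) did not pass. T, the general streak marker Brachyury, went the other way, at 10.98, 12.27 and 12.01 against 9.22, 10.56 and 11. Its groups overlapped in 1 of 9 pairs, and the difference of -1.49 (adjusted p = 0.153) did not pass. With the replicate number as a block 3 of the 15 rose. With a block for replicate number within each day 5 did, among them Mesp1 (adjusted p = 0.00268) and Gsc. In that last fit T had a limma adjusted p of 0.000685, and its decrease missed the threshold only on size.

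Of 13 cardiac and lateral mesoderm genes 3 rose, Gata6, Tbx5 and Myocd, against 0.131% of all genes, with a median of 1.23 for the list. Gata6, a zinc-finger factor of endoderm and cardiac mesoderm, was at 9.66, 8.63 and 7.75 in d5 G- cells and at 10.62, 10.33 and 11.39 in d5 Glow cells. The groups did not overlap, and Gata6 rose by 2.10 (standard error 0.33, adjusted p = 0.000247), with 1.85 within slide 2 and 3.63 within slide 4. Tbx5, of the first heart field and forelimb, was at 6.66, 5.53 and 5.39 against 8.06, 7.88 and 7.52, and rose by 1.96 (standard error 0.39, adjusted p = 0.00403). Myocd, the coactivator of cardiac and smooth muscle genes, rose by 1.80 (adjusted p = 0.00195), from 7.34, 6.17 and 5.75 to 8.29, 8.0 and 8.35. For both genes d5 G- replicate 1 was the highest of its group and still below every d5 Glow array. Gata4, at 11.48, 10.08 and 8.23 against 12.05, 11.81 and 11.31, had groups that overlapped, and its difference of 1.79 (adjusted p = 0.0407) did not pass. The summed intensity of the list ranged from 9224 to 20617 in d5 Glow and from 1883 to 16095 in d5 G- cells, and these ranges overlapped.

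Single genes of other lineages were called. Of 14 haemato-vascular genes only Gata1, the erythroid GATA factor, rose, by 1.82 (standard error 0.35, adjusted p = 0.00291), from 5.58, 5.46 and 5.75 to 6.54, 7.20 and 8.49. Gata1 was well above background on 1 of the 3 d5 G- arrays and on all 3 d5 Glow arrays, so its level in d5 G- cells was mostly at background. Kdr, the receptor that marks this mesoderm, differed by -0.10 on its brighter and 1.94 on its dimmer probe (adjusted p = 0.364), neither of them called, and Tie1 was not well above background on any of the 6 arrays. Of 14 definitive endoderm genes only Sox17 rose, by 1.96 (standard error 0.43, adjusted p = 0.00844). Sox17, the SRY-box factor of endoderm, was at 7.75, 7.56 and 7.02 in d5 G- cells and at 9.50, 9.10 and 9.62 in d5 Glow cells, without overlap. The call of Sox17 was lost without any single array other than d5 G- replicate 1. Foxa2, another endoderm factor, was spread from 9.60 to 12.91 within d5 G- and from 10.49 to 13.64 within d5 Glow cells, and did not differ past that spread (0.60, adjusted p = 0.991). Of 12 paraxial mesoderm and mesenchyme genes 1 was called, Tcf15, which also marks epiblast leaving naive pluripotency, and it fell by 2.35 (standard error 0.36, adjusted p = 0.00018).

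The remaining large increases were of genes with varied roles. Lmo1, a LIM-only cofactor, had the largest increase among called genes, from 7.63, 7.06 and 6.59 to 9.26, 9.36 and 9.90, without overlap (2.41, standard error 0.40, adjusted p = 0.000548). Six2, a homeobox gene of head mesenchyme and kidney progenitors, was at 12.08, 11.16 and 9.57 in d5 G- cells and at 13.00, 12.96 and 12.93 in d5 Glow cells (2.03, adjusted p = 0.00837). As with Mixl1, its d5 Glow arrays were alike and its d5 G- arrays were spread. Plxna4, a semaphorin coreceptor, rose by 2.13, Trim9, a ubiquitin ligase, by 2.09 on its brightest probe, Col23a1, a transmembrane collagen, by 2.07, Prss12, a secreted protease, by 2.07, and Scn4b, a sodium channel subunit, by 1.96. The other probes of Trim9 differed by 0.23 and 0.08, and the dimmer probe of Plxna4 by 0.28, without a call. Other called genes included Vax1 and Gdnf (1.81 each), Ptprb (1.78), Nkx6-1 (1.75), Ajap1 (1.72), Cd93 (1.67), Ndufa4l2 (1.6), Kcp (1.56), Sh3rf3 and AA414768 (1.54 each) and, on its dimmer probe, Flrt3. Of the 12 largest increases, Gata6 was called whichever single array was left out, and Gata6 and Scn4b were called without d5 G- replicate 3. Among the 20 genes with the largest increase, called or not, 4 had a probe far brighter on d5 Glow replicate 3 than on any other array, such as Tubal3, at 13.98 there and at most 5.08 on the other 41 arrays, and none of these probes was called.

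Signalling genes were called singly. In the Nodal pathway, Cfc1 rose and Gdf3 fell among 14 genes. Cfc1, a Nodal coreceptor, was at 11.04, 9.96 and 9.14 in d5 G- cells and at 12.10, 11.67 and 11.90 in d5 Glow cells, without overlap (1.84, standard error 0.38, adjusted p = 0.00493). The call of Cfc1 was lost without any single array other than d5 G- replicate 1. Nodal itself differed by -0.52 (adjusted p = 0.31). Of 15 Wnt ligands only Wnt8a, of the posterior epiblast and streak, passed, and it fell by 1.85 (standard error 0.38, adjusted p = 0.00564), from 8.40, 9.96 and 9.28 to 6.47, 7.85 and 7.76. Its groups were apart. Of 15 Wnt targets, agonists and antagonists only Sfrp5, a secreted Wnt antagonist, rose, by 2.05 (standard error 0.41, adjusted p = 0.00428), from 8.61, 8.02 and 7.52 to 9.44, 9.86 and 10.99. Of 18 genes of the FGF pathway only Fgf10, a ligand of mesenchyme, rose, by 1.87 (standard error 0.36, adjusted p = 0.00324), from 10.80, 9.33 and 8.38 to 11.44, 11.31 and 11.37. Fgf3, expressed in the streak, differed by 2.00 without a call (adjusted p = 0.0418). No gene of the 16 of the BMP pathway or the 14 of the Notch pathway was called.

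Lists with 0 called genes also held those of PRC2 subunits (10 genes, median 0.08), cell cycle and mitosis (16, 0.02), cyclin-dependent kinase inhibitors (7, 0.00), DNA methylation and demethylation (9, 0.04), basement membrane and matrix (17, 0.21), cell migration (15, 0.70), retinoic acid (11, 0.11), Hox and Cdx (11, -0.05), immediate early and heat shock (11 measured, -0.10) and housekeeping genes (10, 0.02). Ezh2, the catalytic subunit of PRC2, differed by 0.26 (adjusted p = 0.81). Among 11 genes of threonine, glycine and serine metabolism Tdh was the only one called. Summed levels of visceral endoderm, neurectoderm and trophoblast markers overlapped between the gates, whereas those of the germ cell list (1197 to 1554 in d5 Glow, 3081 to 5907 in d5 G- cells) and of the haemato-vascular list (8017 to 9723 and 5157 to 7754) did not. Sums of some lists with 0 called genes did not overlap either. They were 21072 to 27901 and 15942 to 18138 for retinoic acid, and 42245 to 43531 and 44644 to 61196 for DNA methylation and demethylation. The summed intensity of 12 visceral endoderm genes lay between 2624 and 3768 in d5 Glow and between 2065 and 4365 in d5 G- cells, with Afp and Apoa4 not well above background on any of the 6 arrays. For 13 neurectoderm genes the ranges were 4747 to 6822 and 4948 to 7555, and for 10 trophoblast genes 13990 to 27242 and 22037 to 30454, with Olig2 and Tpbpa not well above background. None of the genes of these last 3 lists was called.

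**Figure D4:**
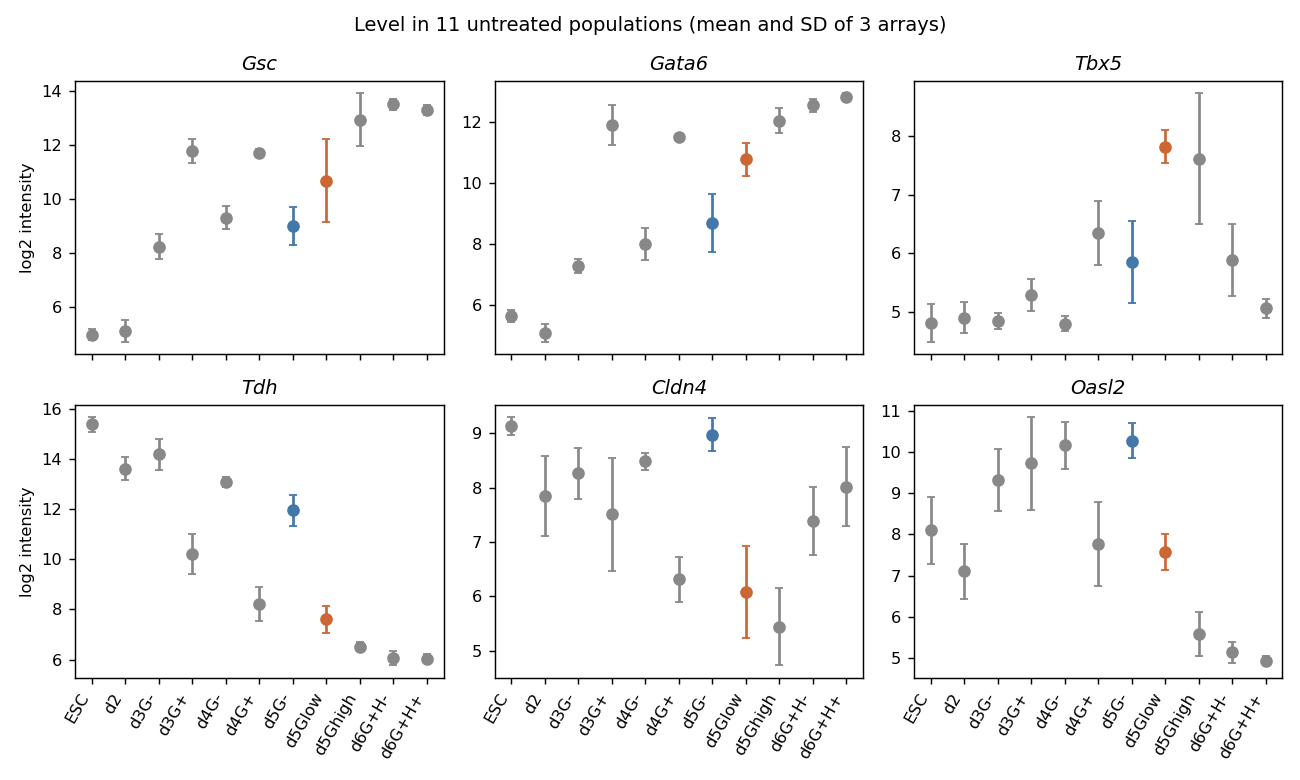
Log2 intensity (mean and SD of 3 arrays) of 6 genes in the 11 untreated populations, from ESCs to day 6, with d5 G- in blue and d5 Glow in orange. Tdh falls from 15.4 in ESCs to 6.03 in d6 G+H+ cells and Gata6 reaches 12.8 there, whereas Tbx5 is highest in the d5 Glow and d5 Ghigh populations.

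Cells with and without Gsc reporter were also sorted at d3 and d4, and those arrays give the differences for the genes called at d5. The gates were not alike, since G+ at d3 and d4 took all reporter-positive cells and d5 Glow only those with a low level. At d4, 183 genes were higher (0.824%) and 324 lower (1.46%) in G+ than in G- cells, and at d3 162 were higher (0.73%) and 248 lower (1.12%). Of the 29 genes higher at d5, 23 were higher at d4 (79.3%, or 12.6% of the 183) and 16 at d3 (55.2%, or 9.88% of the 162). Of the 138 lower at d5, 117 were lower at d4 (84.8%, or 36.1% of the 324) and 72 at d3 (52.2%, or 29% of the 248). No gene called at d5 was called the opposite way at d4. The median difference of the genes called higher was 1.82 at d5, 2.45 at d4 and 1.94 at d3, and 22 of the 29 had a larger difference at d4. That of the genes called lower was -1.87, -2.01 and -1.58, and 81 of the 138 had a larger difference at d4. The 183 genes higher at d4 had a median difference of 1.33 at d5. Their median level rose by 0.67 from d4 to d5 within G- cells and differed by -0.01 between d5 Glow and d4 G+ cells. The d4 arrays that chose these genes enter both values, so neither value is independent of the choice. For Mixl1 the difference was 3.25 at d3, 2.71 at d4 and 1.94 at d5, and for Fgf10 it was 4.82, 3.80 and 1.87. Tbx5 ran the other way, with 0.44, 1.54 and 1.96.

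Whether a difference had changed between days was tested as a difference of differences, in which day and gate cannot be told apart. Between d4 and d5, 0 genes passed by limma (0%), with 940 probes at an unadjusted p under 0.05. Between d3 and d5, 4 genes had a higher (0.018%) and 5 a lower (0.0225%) difference at d5, and Fgf10 was among the latter (-2.95, standard error 0.51, adjusted p = 0.00848). Genes of the interferon list differed by a median of 0.09 at d3, -0.94 at d4 and -1.26 at d5. This list was assembled after its values were seen, so its low d5 median may be partly built into the choice. Of its members 1, Isg15, had a lower difference at d5 than at d3 past the threshold, on its dimmer probe. At d3 Oasl2 averaged 9.33 ± 0.75 without and 9.72 ± 1.12 with the reporter, and at d5 it averaged 10.27 ± 0.43 in G- and 7.57 ± 0.44 in Glow cells (SD, n = 3). Its difference thus went from 0.39 to -2.70, and the change missed the threshold (adjusted p = 0.078). Naive pluripotency genes had a median of -2.08 at d3, -1.99 at d4 and -1.72 at d5.

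**Figure D5:**
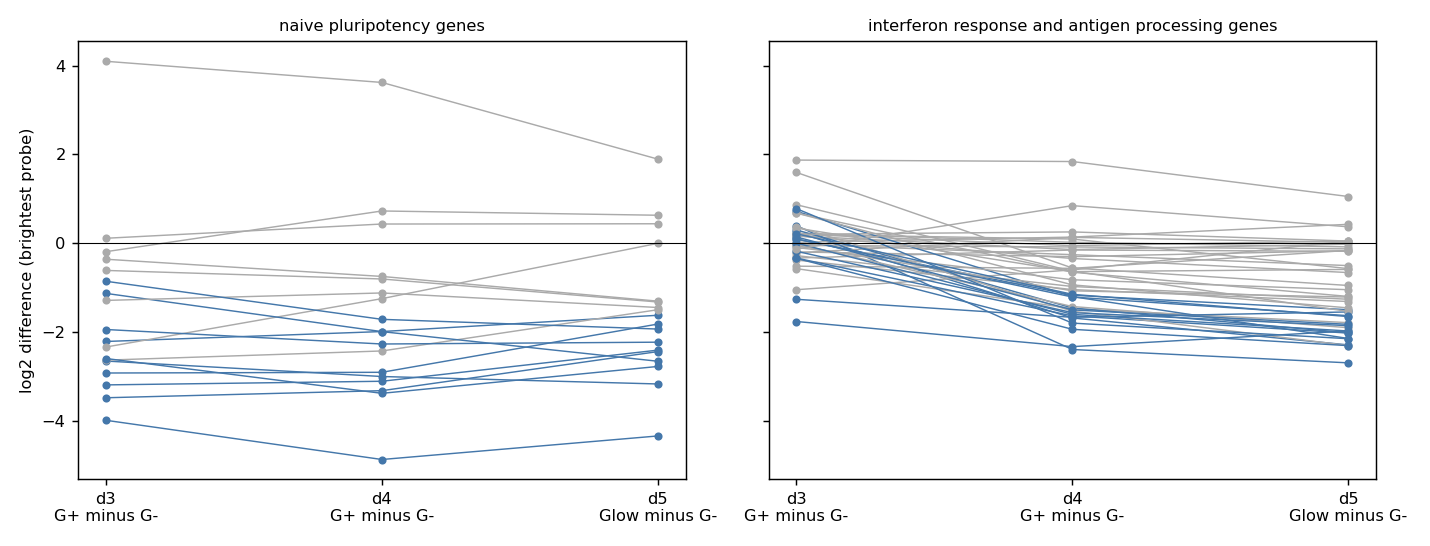
Log2 difference between cells with and without Gsc reporter at d3, d4 and d5 (x axis), 1 line per gene, for 18 naive pluripotency genes (left) and 43 interferon and antigen processing genes (right). Blue lines are genes called lower at d5, and the naive genes among them lie below 0 on all 3 days. The median of the interferon genes, a list assembled after its values were seen, goes from 0.09 to -1.26.

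The d5 Glow cells were also set against d5 Ghigh cells, the population of the same day with the highest reporter level, on 3 more arrays. These comparisons share the d5 Glow arrays. In d5 Ghigh cells 53 genes were higher (0.239%) and 7 lower (0.0315%) than in d5 Glow cells, and 11 were lower with the replicate number as a block. The counts were 106 and 27 without d5 Glow replicate 3, and 29 and 1 without d5 Glow replicate 2. Of the 29 genes higher in d5 Glow than in d5 G- cells, 3 rose further in d5 Ghigh cells, Sox17 (2.98, adjusted p = 0.000129), Prss12 (2.14, adjusted p = 0.00353) and Cfc1 (1.90, adjusted p = 0.00848). Of the 138 lower genes 1 fell further, Enpp2 (-2.38, adjusted p = 0.00545). The median difference between d5 Ghigh and d5 Glow cells was 0.54 over the 29 and -0.29 over the 138. Hhex rose by 2.13 (standard error 0.40, adjusted p = 0.00494) and Sox2 fell by 1.73 (adjusted p = 0.000129), whereas Gsc differed by 2.26 without a call (standard error 0.47, adjusted p = 0.0145). Tbx5 differed by -0.20 (standard error 0.39, adjusted p = 0.979), Fgf10 by 0.01 and Mixl1 by 0.25. The list of definitive endoderm genes had a median of 1.89 from d5 Glow to d5 Ghigh and of 0.62 from d5 G- to d5 Glow, and that of cardiac and lateral mesoderm genes had -0.57 and 1.23.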

How the data were processed

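Agilent one-colour arrays of 62976 spots were used for Cy3-labelled total RNA of the sorted cells. The authors deposited the scanner files, with median foreground and background intensity for each spot, and a table of log2 values made with limma by normexp background correction (offset 10) and quantile normalisation over all 42 arrays. The version of limma that the authors used was not given in the sources used here. The deposited log2 values were used, and had a correlation of at least 0.999979 with values recomputed from the deposited intensity.

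Spots of a probe were averaged, giving 55681 probes, of which 28066 carry 22201 RefSeq accessions, called genes, and 27615 carry none, with 5 called higher and 29 lower. Symbols were found for 21846 accessions. A mean per group was fitted with limma 3.58.1 in R 4.3.3 over the 14 groups, with 28 residual degrees of freedom, with Benjamini-Hochberg adjustment of p across the 55681 probes. A permutation test of 3 arrays against 3 cannot give a two-sided p under 0.1, and was not used. The number of arrays limits the precision. Values are those of a gene's brightest probe over all arrays. A bound is given against the lowest signal well above background where no d5 Glow array measured a gene well above it, as for 7 genes called lower.

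The genes named are Gsc, Hhex, the 12 with the largest change in each direction among called genes that moved alike in all 9 pairs, members of the lists, and genes whose difference changed between days. The members and lists were chosen with earlier results of these data known, and a pattern known from them is no independent support. Other genes named were chosen after their values were seen.

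The main fit used no block. Replicate numbers were a block in alternative fits, since deviations from the group means correlated between arrays of the same number (0.424, 0.276 and 0.611 for replicates 1, 2 and 3). The plain block gave each number the same shift in all groups of the 42 arrays. In replicates 2 and 3 the arrays of the same number also shared a slide, so number and slide cannot be told apart there. Procedures were tested on simulated data, with normal noise drawn independently for each array and a common spread per probe in all groups. For d5 Glow against d5 G- over 55681 probes, 28, 42, 49 and 49 of 50 probes were called at log2 changes of 1.6, 2, 2.5 and 3, and 0 of 55481 unchanged ones. The deviations of the real arrays were correlated, so these counts need not hold for them. The alternatives were other background corrections, scalings, filters, fits, blocks for slide and replicate number (statmod 1.5.0), thresholds, and leaving out each array. Arrays of the EPZ6438 series entered the normalisation over all 42 arrays, the fit and the choice of the brightest probe. They were also among the 41 arrays set against d5 Glow replicate 3, and none of their groups was compared. Their scanner files came from Agilent Feature Extraction 12.0.1.1, and those of the untreated arrays from 11.0.1.1.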

Additional observations from a re-analysis of the deposited data

Results flagged for a closer look

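The difference between cells with and without Gsc reporter was not the same at d3 and d5 for 9 genes, by the test of the difference of differences with limma. Values at d3 are G+ minus G- and at d5 Glow minus G-, on the log2 scale. Day and gate cannot be told apart, since the d3 gate took all reporter-positive cells and d5 Glow only those with a low level. The difference was lower at d5 for 5 genes. Fgf10 went from 4.82 to 1.87 (change -2.95, adjusted p = 0.00848), with d3 G- cells at 5.70 and d5 G- cells at 9.50. Isg15 went on its dimmer probe from 0.34 to -1.94 (change -2.28, adjusted p = 0.00651), whereas its brighter probe changed by -2.54 and missed the threshold (adjusted p = 0.148). Cables1 went from 0.97 to -0.89 (-1.86, adjusted p = 0.00422), Pkp1 from 2.09 to 0.35 (-1.74, adjusted p = 0.00888) and Bhlhe22 from 1.55 to 0.04 (-1.51, adjusted p = 0.00848).

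The difference was higher at d5 for the other 4 genes. Abcc4 went from -2.05 to 0.05 (2.11, adjusted p = 8.47e-05), Trf from -2.34 to -0.58 (1.76, adjusted p = 0.00651), Atxn7l1 from -1.69 to -0.01 (1.68, adjusted p = 0.00848) and BC051142 from -1.60 to -0.02 (1.58, adjusted p = 0.00498). Of the 9 genes, Fgf10 and Isg15 were themselves called at d5. The counts of such genes lay between 1 and 10 (higher) and between 0 and 6 (lower) when single arrays were left out.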

How the results depend on the processing

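Results for d5 Glow against d5 G- are given as genes higher and lower, beside 29 and 138. They were 15 and 82 with a normexp offset of 50, 19 and 146 with processed signals scaled to their 75th percentile (12 and 98 of them shared), 16 and 99 with quantile normalisation over the 33 untreated arrays, 18 and 103 with a fit to those arrays, 0 and 0 with a fit to the compared groups, 46 and 173 with slide as a random block, 33 and 143 with slide as a fixed block, and 52 and 182 at an adjusted p of 0.05. Leaving out single arrays gave 3 to 128 higher and 43 to 274 lower. The other alternatives gave 23 to 36 higher and 100 to 160 lower. No result changed sign.

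With the replicate block 38 and 164 genes were called, all 29 and 138 among them. With a replicate block within each day, added after seeing the data, 62 and 201 were called, 29 and 137 of them shared, and Mesp1, Gata4, Pdgfra, Fgf3 and Cdh1 passed beside Gsc. Leaving out replicate 3 of both groups, also added then, gave 1 higher and 92 lower. With the plain block Gsc passed, and the 12 largest increases and 12 largest decreases kept their calls.

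For d5 Ghigh against d5 Glow (53 and 7), the counts were 34 and 1 with the offset of 50, 2 lower without background correction and 2 lower with the 75th percentile, 0 and 0 with a fit to the compared groups (3387 probes at an unadjusted p under 0.05), 13 lower with slide as a random block, 11 lower with the replicate block and 15 lower at an adjusted p of 0.05. Leaving out single arrays gave 27 to 106 and 1 to 27.

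For the change of the difference between d3 and d5 (4 and 5), 2 lower were called from the recomputed values, 1 and 0 with the 75th percentile, 1 and 1 with quantile normalisation over or a fit to the 33 arrays, 0 and 0 with a fit to the compared groups, 7 higher with slide as a fixed block, 10 and 10 with slide as a random block, 16 and 15 at an adjusted p of 0.05, and 1 to 10 and 0 to 6 without single arrays. Between d4 and d5 each alternative called 0. The cause of these changes was not tested, other than the fewer arrays in some fits. Few arrays and signal near background limit the dim genes.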

Other observations

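On d5 Glow replicate 3, 12 probes were more than 4 log2 units brighter than on any other array, 5 of them with a RefSeq accession and none called. They were 1700088E04Rik (14.52 against at most 7.83), Tubal3 (13.98 against 5.08), Fbxo3 (13.8 against 9.49), Slc5a11 (13.7 against 6.18) and Zfp623 (13.3 against 7.86). Another probe of Slc5a11 was called lower in d5 Glow cells (-1.54, adjusted p = 0.00428), so that the probes of this gene disagree. The cause was not tested.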
